A study of Mus musculus with 24 samples.

Results

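The comparison described here sets 3 precursor B-cell acute lymphoblastic leukaemias (preB-ALL) titled LAP/Blnk preB-ALL against 4 titled LAP preB-ALL. These 7 tumours were chosen by their titles from the 24 mouse samples of the series, and their genes were compared as log2 ratios to the median of the 16 tumours. LAP/Blnk preB-ALL developed in homozygous Blnk knockout mice that also carried the Cebpb LAP transgene. LAP preB-ALL developed in Cebpb LAP transgenic mice in which the labels name no change of Blnk. The transgene is therefore shared by both groups, and the labelled difference between them is the loss of Blnk. The remaining tumours were 5 Blnk preB-ALL, from Blnk knockout mice without the transgene, and 4 LAP B-ALL, from transgenic mice. A further 8 arrays of the BKO408 cell line entered only the choice of a probe set for each gene. No treatment was given, per the labels. The sources used here do not give the promoter and cell type that drive the transgene, the part of Blnk deleted, the strain, age and sex of the mice, the tissue sampled or its share of tumour cells. Whether every tumour is a separate animal is not stated either, and the p-values thus reflect how far these samples spread, which may in part be technical.

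Blnk encodes an adaptor protein that couples the pre-B-cell receptor (pre-BCR) and the B-cell receptor to downstream kinases and phospholipases. Signals of the pre-BCR, made of an immunoglobulin heavy chain, a surrogate light chain and the Cd79a/Cd79b pair, end the proliferative phase of pre-B cells and promote light-chain rearrangement, and mice without Blnk accumulate pre-B cells and can develop preB-ALL. C/EBPβ, encoded by Cebpb, is a transcription factor best known in myeloid cells and liver, and LAP is its activating form. Forced C/EBP activity is known to shift B-lineage cells towards macrophage gene expression.

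The values carry no level of expression. Each probe set had a median of 0 over the 16 tumours, so a value of 1 means a 2-fold higher signal than in the median tumour, if the logarithm is to base 2, which the sources used here do not state. A total of 17097 genes were tested, each with 1 probe set. Within LAP/Blnk preB-ALL the SD of a gene had a median of 0.157, and within LAP preB-ALL of 0.236. The medians of the arrays over all genes lay between -0.04 and 0.04 in the 7 tumours.

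The genes named in the labels were read first. The probe set of Cebpb that entered the test over all genes stood at 0.51, -0.03 and 0.27 in LAP/Blnk preB-ALL 1 to 3, against 0.03, -1.41, 0.05 and 0.19 in LAP preB-ALL 1 to 4. The 3 Cebpb probe sets differed by 0.53, -1.02 and 0.24 on the log2 scale between LAP/Blnk preB-ALL and LAP preB-ALL (exact permutation tests, two-sided, p = 0.229, 0.229 and 0.286, each 0.381 adjusted over 4 tests). The probe set of Blnk was at 0.42, 0.52 and 1.23 in LAP/Blnk preB-ALL, against 0.01, 1.45, -0.06 and -0.01 in LAP preB-ALL, a difference of 0.38 (exact permutation p = 0.4, also 0.4 adjusted). With 3 and 4 tumours no exact test can go below 0.0571. The Blnk probe set was thus no lower in the knockout tumours, and since the deleted part of the gene is not given, a probe set outside it would check nothing. Blnk also lies on chromosome 19, whose genes were higher in LAP/Blnk preB-ALL, as described below.

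The stage of the tumours was checked on genes of the pre-BCR and of B-cell maturation. Vpreb1, which encodes a part of the surrogate light chain and is a defining marker of pro-B and pre-B cells, was at 0.35, 0.30 and 0.22 in LAP/Blnk preB-ALL, against -0.11, -8.49, 0.01 and -8.89 in LAP preB-ALL 1 to 4. Vpreb2, the closely related copy, followed it at 0.66, 0.48 and 0.23 in LAP/Blnk preB-ALL, against -0.18, -8.30, -0.01 and -8.28 in LAP preB-ALL. The tumours labelled LAP preB-ALL 2 and 4 therefore stood far below the other 5 in a defining gene of the pre-B stage, while LAP preB-ALL 1 and 3 lay close to LAP/Blnk preB-ALL. Ms4a1, the gene of the mature B-cell antigen CD20, was at -4.69, -4.59 and -4.49 in LAP/Blnk preB-ALL, against -3.87, 3.87, -4.67 and 1.94 in LAP preB-ALL. In LAP B-ALL 1 to 3, Vpreb1 was between -9.0 and -8.8 and Ms4a1 between 3.0 and 3.7. The tumours labelled LAP preB-ALL 2 and 4 thus went against their label by these markers and resembled LAP B-ALL 1 to 3 in them. The tumour labelled LAP B-ALL 4, with Vpreb1 at 0.14 and Cebpb at -3.11, went against its own label and enters the fit only through the shared estimate of the spread.

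**Figure D1:**
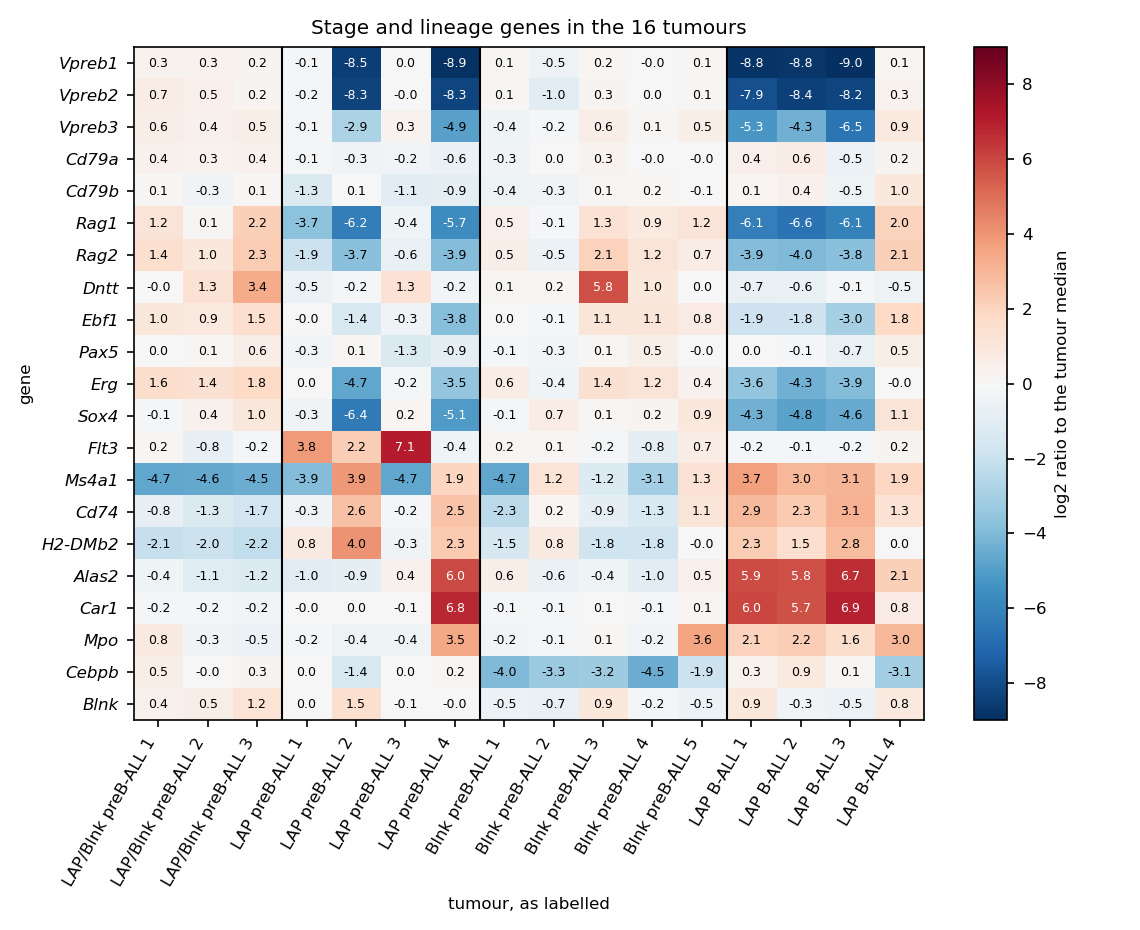
Log2 ratio to the tumour median (colour and printed number) of 21 stage, lineage and label genes (rows) in the 16 tumours (columns, as labelled). LAP preB-ALL 2 and 4 have Vpreb1 at -8.5 and -8.9 and Ms4a1 at 3.9 and 1.9, while the 3 LAP/Blnk preB-ALL have Vpreb1 between 0.2 and 0.3 and Ms4a1 between -4.7 and -4.5.

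Over all genes, LAP preB-ALL 4 correlated with LAP B-ALL 1 to 3 at r between 0.815 and 0.857, and LAP preB-ALL 2 at r between 0.284 and 0.392. The 3 LAP/Blnk preB-ALL correlated with each other at r between 0.336 and 0.516, LAP preB-ALL 1 with 3 at 0.344, and LAP preB-ALL 1 and 3 with 2 and 4 at r between -0.158 and -0.0109. These correlations are across genes, which are not independent replicates, and the ratios share 1 centring. LAP preB-ALL 4 also carried the signature of another lineage, as did LAP B-ALL 1 to 3. The median of 17 measured erythroid and platelet genes was -0.25, -0.17 and -0.32 in LAP/Blnk preB-ALL, against -0.40, -0.05, -0.03 and 4.88 in LAP preB-ALL. In LAP B-ALL 1 to 3 this median was 4.49, 4.66 and 5.42. The red-cell genes Car1, Rhag and Alas2 were at 6.82, 7.38 and 5.98 in LAP preB-ALL 4. In these bulk samples, more cells of a type and more RNA per cell cannot be told apart. Results below are for the 7 tumours as labelled, with values without LAP preB-ALL 2 and 4 where a call was lost or a value rests on them.

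LAP/Blnk preB-ALL and LAP preB-ALL differed in 406 genes, 272 of them higher and 134 lower in LAP/Blnk preB-ALL. These were 1.59% and 0.784% of the genes tested, 2.37% in all (limma, two-sided, Benjamini-Hochberg adjusted over all genes, threshold 0.05), while an unadjusted p under 0.05 was reached by 3082. At least 2-fold changes were seen in 177 genes, 136 higher and 41 lower. Of 245 called genes with more than 1 probe set, 50 had all of their probe sets called. In 32 of the 245 a probe set had the other sign. The values of LAP/Blnk preB-ALL and LAP preB-ALL did not overlap in 405 of the 406 genes, and in 2951 (17.3%) of all genes. Of the 406, 47 were called again in every one of the 7 fits that left out 1 tumour, 35 higher and 12 lower. Fits without LAP/Blnk preB-ALL 1, 2 or 3 called 132, 134 or 85 genes, of which 117, 123 or 70 were among the 406. Fits without LAP preB-ALL 1, 2, 3 or 4 called 237, 304, 215 or 230, of which 198, 246, 184 or 190 were among them, and a fit of only these 2 groups called 50, of which 36 were. The 272 and 134 genes are thus a list that depends on each single tumour, and the 47 are its steadier core. Counts of called members in the gene lists below are to be set beside the 2.37% of all genes.

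Without LAP preB-ALL 2 and 4 429 genes were called. Of these, 188 were higher and 241 lower in LAP/Blnk preB-ALL, and 183 were shared with the 406, which is 45.1% of the first list and 42.7% of the second. All 406 genes kept their sign, which leaving out tumours could not turn in the 405 whose groups did not overlap.

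**Figure D2:**
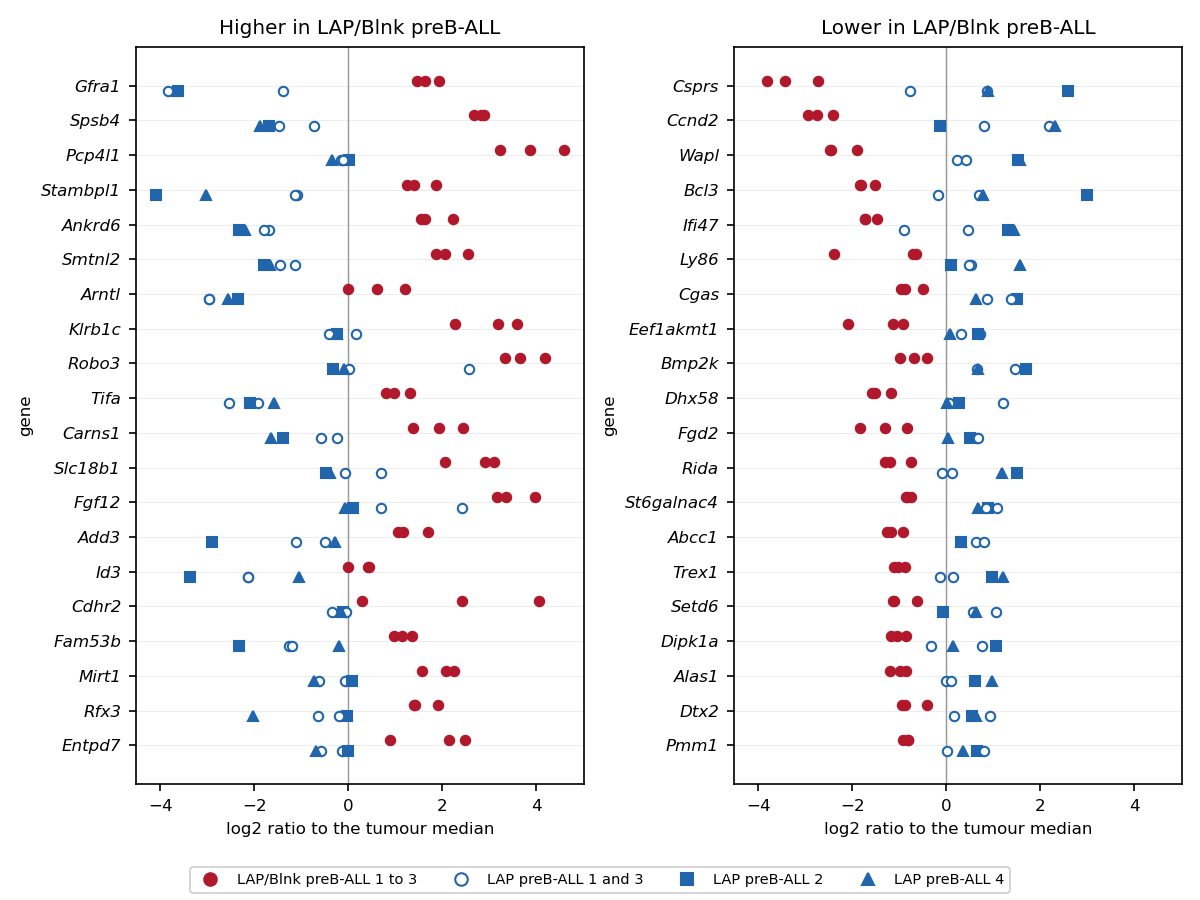
Log2 ratio to the tumour median (x axis) of the 20 called genes with the largest rise (left) and the 20 called genes with the largest fall (right) in LAP/Blnk preB-ALL, 1 point for each tumour, with LAP/Blnk preB-ALL filled red above LAP preB-ALL in blue. The groups do not overlap in any of the 40 genes, which the choice of the genes required.

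Among called genes whose groups did not overlap, with unnamed transcripts and receptor segments left out, the largest rise was that of Gfra1. This gene, which encodes the receptor that binds glial cell-derived neurotrophic factor and signals with Ret, was at 1.47, 1.93 and 1.62 in LAP/Blnk preB-ALL, against -1.39, -3.62, -3.85 and -3.66 in LAP preB-ALL. It rose by 4.80 ± 0.79 on the log2 scale (SE, n = 3 and 4; 27.9-fold; limma adjusted p = 0.0106), and by 4.29 without LAP preB-ALL 2 and 4 (adjusted p = 0.0445). All 3 Gfra1 probe sets were called. Among its relatives, Gfra2, a receptor gene of the same family, was at 0.96, 0.08 and 1.15 in LAP/Blnk preB-ALL, against -0.05, -1.08, 0.05 and -1.40 in LAP preB-ALL, which did not overlap but did not pass (1.35, adjusted p = 0.339; 0.73 and 0.751 without LAP preB-ALL 2 and 4). Its 3 probe sets differed by 1.35, 1.67 and 1.01. Ret differed by 0.04, Gdnf by -0.13, Gfra3 by 0.05 and Gfra4 by 0.13, none called, and Gfra1 was the single called gene of the 10 genes of GDNF ligands and receptors. Robo3, an axon guidance receptor of the Slit system, was at 3.65, 4.18 and 3.33 in LAP/Blnk preB-ALL, against 2.58, -0.33, 0.00 and -0.09 in LAP preB-ALL, and rose by 3.18 ± 0.55 (adjusted p = 0.0137). LAP preB-ALL 1 was the exception among its group, as it was for Fgf12, a fibroblast growth factor homologue that stays inside the cell, which was at 3.16, 3.35 and 3.97 in LAP/Blnk preB-ALL, against 2.42, 0.11, 0.70 and -0.06 in LAP preB-ALL. Fgf12 rose by 2.70 ± 0.43 (adjusted p = 0.00888) and by 1.93 without LAP preB-ALL 2 and 4 (adjusted p = 0.0226), and for Robo3 the same fit gave 2.43 (adjusted p = 0.0527). Klrb1c, a receptor typical of natural killer cells, was at 3.19, 3.59 and 2.28 in LAP/Blnk preB-ALL, against 0.15, -0.24, -0.40 and -0.24 in LAP preB-ALL, a rise of 3.20 that was lost in each of the 7 fits that left out a tumour and without LAP preB-ALL 2 and 4 (adjusted p = 0.0859). The 12 measured natural killer genes as a list had a median of -0.07, -0.16 and -0.19 in LAP/Blnk preB-ALL, against -0.24, 0.43, -0.07 and 0.24 in LAP preB-ALL, so that Klrb1c was the single called gene of its list.

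Among genes with a role in protein turnover, Spsb4, whose product presents substrates to a ubiquitin ligase, gave the smallest adjusted p of all genes. It was at 2.88, 2.68 and 2.82 in LAP/Blnk preB-ALL, against -0.72, -1.70, -1.48 and -1.89 in LAP preB-ALL, and rose by 4.24 ± 0.41 (18.9-fold; limma adjusted p = 0.00111; 3.90 without LAP preB-ALL 2 and 4). In Blnk preB-ALL, which also lack Blnk, Spsb4 ran from 0.72 to 2.84 with a median of 1.33, and in LAP B-ALL it was between -2.00 and -1.15. Tumours of Blnk knockout mice were thus all above 0 and tumours of mice with the transgene alone all below it. Stambpl1, a deubiquitinase gene of chromosome 19, was at 1.24, 1.39 and 1.87 in LAP/Blnk preB-ALL, against -1.09, -4.09, -1.13 and -3.04 in LAP preB-ALL. Its rise of 3.84 ± 0.86 (adjusted p = 0.0365) fell short of the threshold without LAP preB-ALL 2 and 4 (2.61, adjusted p = 0.147). Pcp4l1, a small calmodulin-related protein gene, was at 3.86, 3.23 and 4.58 in LAP/Blnk preB-ALL, against -0.16, 0.01, -0.11 and -0.34 in LAP preB-ALL, and rose by 4.04 ± 0.68 (adjusted p = 0.011). Ankrd6, whose product acts in planar polarity and Wnt signalling, rose by 3.80 with all of its 3 probe sets called, and Apc, the gene of a scaffold of β-catenin degradation, by 0.89. These were the 2 called genes of 29 measured Wnt and planar polarity genes, whose median difference was 0.01, against -0.03 over all genes tested, of which 2.37% were called. Without LAP preB-ALL 2 and 4 the list held 0 calls (limma, adjusted p = 0.0812 for Ankrd6 and 0.125 for Apc). The other Apc probe sets differed by 0.10 to 0.74 and were not called.

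The circadian clock list held 1 rise and 1 fall. Arntl, the gene of the activator that pairs with Clock, was at -0.01, 0.60 and 1.20 in LAP/Blnk preB-ALL, against -2.96, -2.35, -2.96 and -2.56 in LAP preB-ALL, with no overlap. It rose by 3.31 ± 0.64 (9.9-fold; limma adjusted p = 0.0213) with both probe sets called, and by 3.56 without LAP preB-ALL 2 and 4 (adjusted p = 0.0431). In Blnk preB-ALL it ran from 0.01 to 0.63. Per1, a repressor of the Clock/Arntl pair and one of its targets, was at -0.25, -0.53 and -0.71 in LAP/Blnk preB-ALL, against 0.51, 0.61, 0.44 and 1.28 in LAP preB-ALL. It fell by 1.21 (SE 0.23; adjusted p = 0.0196), and was at -0.97 without LAP preB-ALL 2 and 4 (adjusted p = 0.0517). Genes of other clock repressors did not pass, Bhlhe40 at -1.53 (adjusted p = 0.0746) and Nfil3 at -1.85 (adjusted p = 0.11). The 21 measured clock genes gave a median difference of -0.08 with 1 gene higher and 1 lower (9.52% called, against 2.37% of all genes), and Clock itself differed by 0.15. The time of day at which the tumours were taken was not given.

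Among cell-cycle genes, 1 D-type cyclin passed the test. Ccnd2, the gene of the cyclin D2 that drives entry into the cell cycle in pre-B cells, was at -2.41, -2.75 and -2.94 in LAP/Blnk preB-ALL, against 0.81, -0.14, 2.18 and 2.31 in LAP preB-ALL. It fell by 3.99 (SE 0.98; 15.9-fold; limma adjusted p = 0.0496), and its 6 probe sets differed by -4.15 to -2.45. Ccnd3, the cyclin on which pre-B cells depend, was at 1.53, 1.13 and 1.02 in LAP/Blnk preB-ALL, against -1.02, -0.53, 0.02 and -0.50 in LAP preB-ALL, which did not overlap but did not pass (1.73, adjusted p = 0.134). Ccnd2 was called in 1 of the 7 fits that left out a tumour, and without LAP preB-ALL 2 and 4 it was at -4.19 (adjusted p = 0.0848) and Ccnd3 at 1.72. Cdkn2c, the gene of an inhibitor of the kinases that D-type cyclins activate, was at 0.72, 0.79 and 0.69 in LAP/Blnk preB-ALL, against -0.70, -0.97, -0.90 and -0.08 in LAP preB-ALL, and rose by 1.39 ± 0.22 (adjusted p = 0.00888) in each fit that left out a tumour as well. Cdkn2a, which encodes an inhibitor of the same kinases and an activator of p53, was at -0.10, 0.31 and -1.55 in LAP/Blnk preB-ALL, against 3.64, 0.26, 3.51 and -1.84 in LAP preB-ALL and was not called (-1.84, adjusted p = 0.557). LAP preB-ALL 1 and 3 were its high tumours.

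Mitosis and DNA replication genes differed in their balance of signs. Of 45 measured mitosis genes 36 had a positive difference, 3 rose (6.67%, against 1.59% of all genes) and 0 fell. The list's median was 0.49, 0.38 and 0.03 in LAP/Blnk preB-ALL, against 0.03, -0.22, -0.11 and -0.01 in LAP preB-ALL, so that LAP/Blnk preB-ALL 3 lay among the others. The called genes were the mitotic kinesins Kif11 (1.57 ± 0.25) and Kif20b (2.10 ± 0.26), both on chromosome 19, and the spindle checkpoint kinase Ttk (0.73; adjusted p = 0.079 without LAP preB-ALL 2 and 4). Of the genes of chromosome 19, 21.1% were called. The other Ttk probe set differed by 0.26 and was not called. Of 40 measured replication genes 16 had a positive difference and 0 were called, with a median difference of -0.13. Over all genes tested 46.0% had a positive difference.

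Cohesin, the ring that holds sister chromatids together and shapes chromosome loops, is loaded and released by dedicated factors. Of 13 measured cohesin genes 12 had a positive difference, with a median of 0.34, 0.19 and 0.27 in LAP/Blnk preB-ALL, against -0.01, -0.23, -0.20 and -0.11 in LAP preB-ALL. The groups did not overlap in this median, and the median difference of 0.58 was 0.59 without LAP preB-ALL 2 and 4. Smc3, a core subunit, was at 0.99, 0.92 and 1.08 in LAP/Blnk preB-ALL, against 0.04, -0.04, 0.27 and -0.31 in LAP preB-ALL, and rose by 1.01 ± 0.17 (limma adjusted p = 0.0106). Stag1, another subunit, rose by 0.82 (adjusted p = 0.0283; 0.0669 without LAP preB-ALL 2 and 4). Its other probe sets differed by 0.34 to 0.63 and were not called. The loader gene Nipbl (0.72), the acetyltransferase genes Esco2 (0.94) and Esco1 (0.41), Cdca5 (1.00) and Stag2 (0.50) had positive differences that did not pass. Wapl, whose product opens the ring, was the 1 gene of the list with a negative difference. It was at -2.46, -2.48 and -1.89 in LAP/Blnk preB-ALL, against 0.23, 1.52, 0.42 and 1.58 in LAP preB-ALL, and fell by 3.21 (SE 0.41; adjusted p = 0.00537), also in each fit that left out a tumour. The other 2 Wapl probe sets differed by -0.08 and -0.02, so the fall was seen by 1 of 3 probe sets and cannot be read as a fall of the whole transcript. Smc3 and Cdca5 lie on chromosome 19, and without the genes of that chromosome the list's median difference was 0.50.

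Id3 stood out among the transcriptional regulators. Its product blocks the E proteins that drive B-cell development. Id3 was at 0.43, 0.41 and -0.01 in LAP/Blnk preB-ALL, against -2.13, -3.36, -2.14 and -1.05 in LAP preB-ALL, and rose by 2.45 ± 0.46 (5.45-fold; limma adjusted p = 0.0196; 2.41 without LAP preB-ALL 2 and 4, adjusted p = 0.0147). It was the single called gene of 7 Id and E-protein genes (14.3%, against 2.37% of all genes). The E-protein genes Tcf3 (0.68), Tcf12 (0.71) and Tcf4 (0.64) were not called, nor was Id2 at -1.55. Of 39 measured transcription factors of the B lineage 0 were called, with a median difference of 0.17 that was 0.34 without LAP preB-ALL 2 and 4. Pax5, the factor that fixes B-cell identity, was at 0.04, 0.10 and 0.58 in LAP/Blnk preB-ALL, against -0.27, 0.12, -1.29 and -0.89 in LAP preB-ALL. Rfx3, a factor of cilium genes on chromosome 19, rose by 2.30 (adjusted p = 0.0463; 0.0969 without LAP preB-ALL 2 and 4). The other Rfx3 probe set differed by 0.45 and was not called. Hmgb2, which assists the RAG recombinase at its sites, rose by 0.61 (adjusted p = 0.017; 0.0689 without LAP preB-ALL 2 and 4).

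Genes of the pre-B and mature B stages had large differences that mostly did not pass. Rag1 and Rag2, the recombinase genes of V(D)J joining, differed by 5.15 and 4.09 (adjusted p = 0.157 and 0.119). Rag1 was at 1.18, 0.08 and 2.17 in LAP/Blnk preB-ALL, against -3.71, -6.24, -0.41 and -5.66 in LAP preB-ALL, and without LAP preB-ALL 2 and 4 the difference was 3.20 (adjusted p = 0.493), and that of Rag2 was 2.83 (adjusted p = 0.39). LAP preB-ALL 1 was also low in both genes. The median difference of the 6 measured pre-BCR components was 1.58 with the 4 LAP preB-ALL and 0.47 with LAP preB-ALL 1 and 3 alone. Cd79a was at 0.37, 0.35 and 0.37 in LAP/Blnk preB-ALL, against -0.14, -0.30, -0.21 and -0.59 in LAP preB-ALL (0.67, adjusted p = 0.124), a difference that all 4 tumours of the group shared. In the opposite direction, 15 genes of MHC class II presentation had a median difference of -1.49, which was -0.18 without LAP preB-ALL 2 and 4, and 26 immature and mature B-cell genes one of -0.99, which was also -0.18 without them. H2-DMb2, of the peptide-loading factor DM, was at -2.07, -1.96 and -2.24 in LAP/Blnk preB-ALL, against 0.82, 4.02, -0.30 and 2.35 in LAP preB-ALL, and differed by -3.81 (adjusted p = 0.0507) or, without LAP preB-ALL 2 and 4, by -2.35 (adjusted p = 0.196). H2-Aa and H2-Ab1, of the presenting chains, differed by -1.95 and -1.49 with all 7 tumours and by -0.05 and -0.01 without those 2. The call of Ly86, a partner of a Toll-like receptor relative on B cells, was the 1 call in the mature B-cell list, a fall of 1.92 (adjusted p = 0.0473; 0.102 without LAP preB-ALL 2 and 4).

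**Figure D3:**
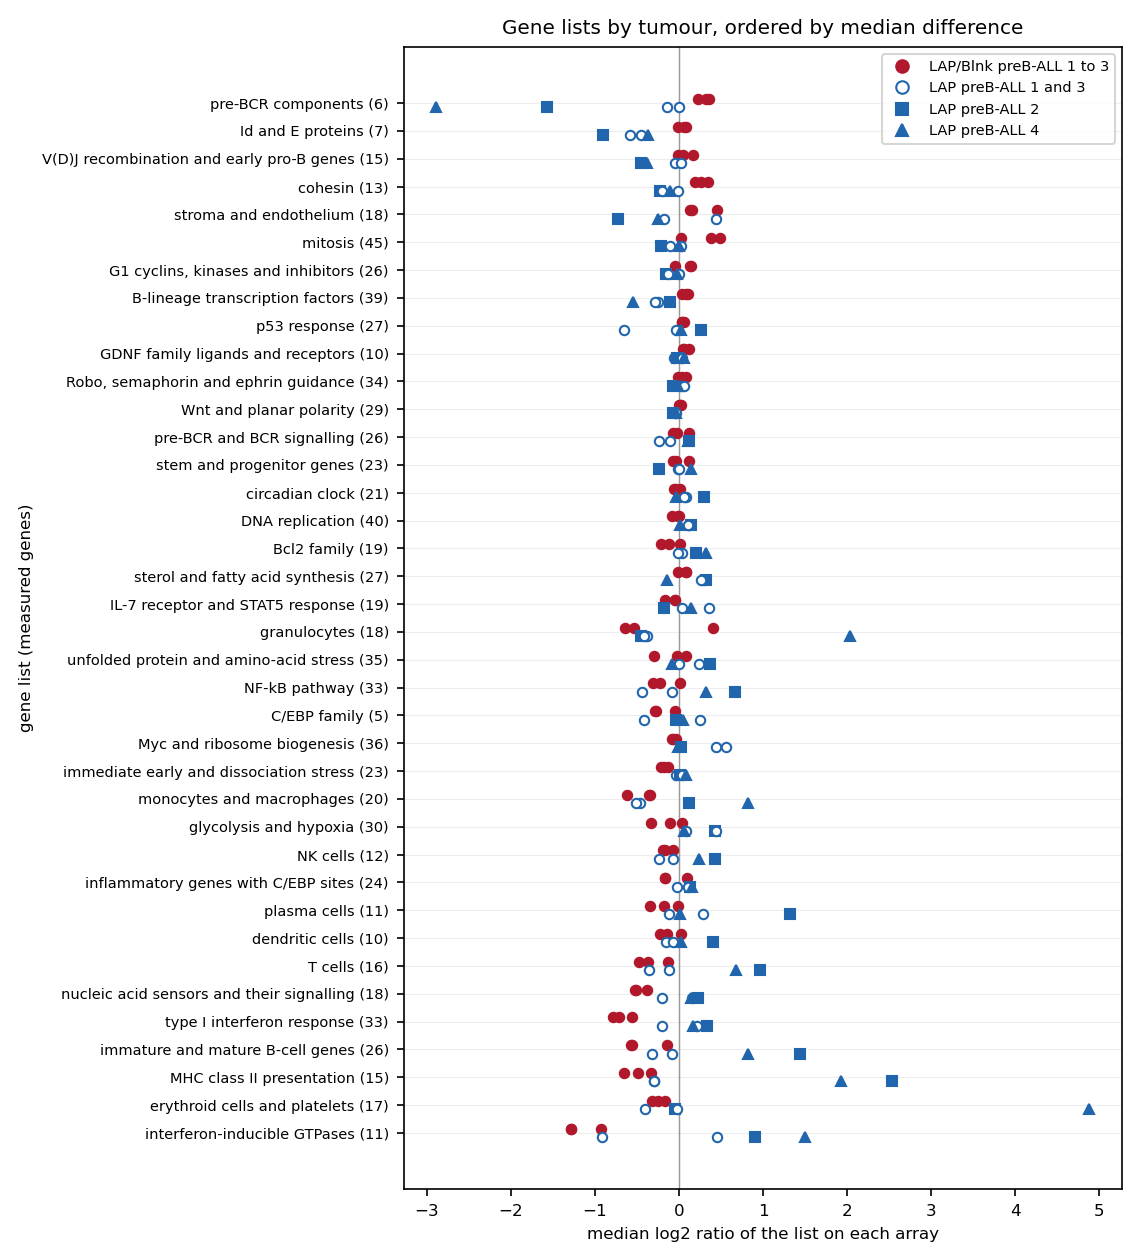
Median log2 ratio (x axis) of each of 38 gene lists (y axis, with the number of measured genes) on each array, 1 point for each tumour, with LAP/Blnk preB-ALL filled red above LAP preB-ALL in blue and LAP preB-ALL 2 and 4 as a square and a triangle. In the erythroid, MHC class II and pre-BCR lists LAP preB-ALL 2, 4 or both lie apart from the other 5 tumours, whereas in the cohesin and type I interferon lists the 3 LAP/Blnk preB-ALL lie to one side of all 4 LAP preB-ALL.

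Interferon response genes had mostly negative differences. Many target genes of type I interferons carry a repeated GAAA element in their promoters, while many guanylate-binding and immunity-related GTPase genes answer interferon gamma as well. Of 33 measured type I interferon response genes 31 had a negative difference, and the list's median was -0.78, -0.72 and -0.56 in LAP/Blnk preB-ALL, against 0.21, 0.34, -0.20 and 0.16 in LAP preB-ALL. The groups did not overlap in this median, and the median difference of -0.80 was -0.76 without LAP preB-ALL 2 and 4. In 16 of the 33 genes (48.5%) the groups did not overlap, against 17.3% of all genes. The 1 call of the list (3.03%, near the 2.37% of all genes) was Ifi35, which fell by 0.86 (limma adjusted p = 0.0365; -0.71 and 0.135 without LAP preB-ALL 2 and 4). Usp18, the negative regulator of the interferon receptor, was at -1.79, -2.15 and -2.13 in LAP/Blnk preB-ALL, against 1.22, 0.44, 0.37 and 0.16 in LAP preB-ALL (-2.57, adjusted p = 0.0592). Irf7, the factor that amplifies the response, was at -1.41, -1.90 and -1.85 in LAP/Blnk preB-ALL, against 0.21, 1.78, -0.32 and 0.26 in LAP preB-ALL (-2.20, adjusted p = 0.114). The Blnk preB-ALL varied among themselves, with list medians from -0.96 to 0.74, so low values were not seen in all Blnk knockout tumours. Among markers of other leukocytes, the T-cell list had a median of -0.13, -0.37 and -0.47 in LAP/Blnk preB-ALL, against -0.12, 0.96, -0.36 and 0.67 in LAP preB-ALL. The granulocyte list had a median of 0.40, -0.54 and -0.64 in LAP/Blnk preB-ALL, against -0.39, -0.45, -0.41 and 2.04 in LAP preB-ALL. Their part in the interferon values was not tested beyond the values without LAP preB-ALL 2 and 4 above.

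Sensors of foreign nucleic acid held 3 falls. Of 18 measured sensor and signalling genes 3 fell, where 0.784% of all genes fell, 0 rose and 16 had a negative difference, where 46.0% of all genes had a positive one, with a median difference of -0.69 that was -0.39 without LAP preB-ALL 2 and 4. Cgas, the cytosolic DNA sensor, was at -0.49, -0.96 and -0.87 in LAP/Blnk preB-ALL, against 0.86, 1.50, 1.37 and 0.64 in LAP preB-ALL, and fell by 1.87 (SE 0.41; limma adjusted p = 0.0358; -1.89 and 0.0747 without LAP preB-ALL 2 and 4). Dhx58, a regulator of the RNA sensors, was at -1.52, -1.58 and -1.17 in LAP/Blnk preB-ALL, against 1.22, 0.27, 0.05 and 0.02 in LAP preB-ALL, and fell by 1.81 (adjusted p = 0.0268; -2.05 and 0.0406 without those 2). Trim25, which activates an RNA sensor by ubiquitin, fell by 1.03 (adjusted p = 0.0386; -1.11 and 0.0256 without those 2). Of the 7 fits that left out a tumour, Dhx58 was called in 3, Cgas in 1 and Trim25 in 1, so these falls depend on single tumours. The RNA sensor gene Ifih1 (-1.76) and the sensor gene Zbp1 (-2.00) were not called. Trex1, whose product degrades cytosolic DNA, was at -0.88, -1.03 and -1.11 in LAP/Blnk preB-ALL, against 0.14, 0.97, -0.13 and 1.21 in LAP preB-ALL, and fell by 1.55 (adjusted p = 0.0336; -1.01 and 0.129 without those 2).

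The interferon-inducible GTPases, which attack the vacuoles of intracellular microbes, were the list with the lowest median difference, but not the steadiest. Their median over 11 measured genes was -0.93, -1.29 and -1.29 in LAP/Blnk preB-ALL, against 0.45, 0.90, -0.92 and 1.50 in LAP preB-ALL. LAP preB-ALL 3 lay beside LAP/Blnk preB-ALL 1, and the median difference of -1.55 was -0.78 without LAP preB-ALL 2 and 4. Ifi47 was the single call of the list, at -1.72, -1.74 and -1.47 in LAP/Blnk preB-ALL, against 0.46, 1.32, -0.90 and 1.44 in LAP preB-ALL, a fall of 2.22 (limma adjusted p = 0.0496; -1.42 and 0.224 without those 2). Tgtp1 was at -1.39, -1.29 and -1.29 in LAP/Blnk preB-ALL, against 1.12, 1.44, -0.67 and 2.30 in LAP preB-ALL (-2.37, adjusted p = 0.125). Igtp (-1.92), Irgm1 (-0.95) and Gbp2 (-1.46) were not called either. Igtp, Irgm1 and Gbp2 were chosen after their values were seen, to show promoters, as were Gbp7, Gdnf, Gfra3, Gfra4, Nipbl, Esco1, Stag2, Clock, Tcf4, H2-Aa, H2-Ab1 and Ifih1, to describe their lists. Tgtp1 and Igtp have near-identical copies in the genome, so their probe sets are uncertain.

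The promoters of these GTPase genes are shown because most of them share a short element. Of the 8 measured GTPase genes with a RefSeq promoter sequence in the GRCm38.p6 table, 7 (87.5%) held GAAANNGAAA on either strand in the 250 bases before the gene start. The element stood in 8 of 24 (33.3%) type I interferon genes, 2 of 14 (14.3%) sensor genes and 421 of 13605 (3.09%) tested genes with a promoter. Each line gives the strand of the gene, 5′ to 3′, with the element in capitals, in the orientation in which it reads on that strand.
Tgtp1: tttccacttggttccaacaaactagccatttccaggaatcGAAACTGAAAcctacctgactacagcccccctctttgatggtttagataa
Igtp: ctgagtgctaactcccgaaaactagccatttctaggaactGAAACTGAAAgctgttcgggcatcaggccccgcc
Irgm1: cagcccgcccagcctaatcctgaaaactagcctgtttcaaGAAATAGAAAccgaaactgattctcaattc
Gbp2: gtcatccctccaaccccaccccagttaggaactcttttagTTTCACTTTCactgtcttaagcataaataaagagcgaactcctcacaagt
These stretches lie in GRCm38.p6 upstream of the gene starts, Tgtp1 at chr11:48992274-48992363 (minus strand), Igtp at chr11:58199482-58199555 (plus strand), Irgm1 at chr11:48871421-48871490 (minus strand) and Gbp2 at chr3:142620564-142620653 (plus strand).
A match describes letters in a window and not a bound site. In Irgm1 another match overlaps the one in capitals, which marks the first. Irgm1 was at -1.04, -0.98 and -0.64 in LAP/Blnk preB-ALL, against 0.37, 0.17, -1.03 and 0.76 in LAP preB-ALL. The 1 GTPase gene with a positive difference, Gbp7 (0.77), held the element too.

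NF-κB genes changed in both directions. Bcl3, the gene of a nuclear co-activator of NF-κB, was at -1.51, -1.80 and -1.83 in LAP/Blnk preB-ALL, against 0.71, 2.99, -0.19 and 0.79 in LAP preB-ALL, and fell by 2.79 (limma adjusted p = 0.0409; -1.97 and 0.0973 without LAP preB-ALL 2 and 4). Tifa, an adaptor that triggers NF-κB through TRAF proteins, was at 0.80, 0.97 and 1.32 in LAP/Blnk preB-ALL, against -1.92, -2.10, -2.55 and -1.58 in LAP preB-ALL, and rose by 3.07 ± 0.55 (adjusted p = 0.0152; 3.26 and 0.0319 without those 2). Tab1, a partner of the kinase Tak1, fell by 0.41 (adjusted p = 0.0403; 0.0785 without those 2). The median difference of the 33 measured genes was -0.32, and without LAP preB-ALL 2 and 4 it was 0.25, so its sign turned. Setd6, whose product methylates an NF-κB subunit, fell by 1.50 (adjusted p = 0.00888), also in each fit that left out a tumour.

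Growth and metabolism genes had mostly negative differences. Of 36 measured Myc and ribosome biogenesis genes 28 had a negative difference and 0 were called, with a median of -0.03, -0.07 and -0.08 in LAP/Blnk preB-ALL, against 0.44, 0.02, 0.55 and -0.01 in LAP preB-ALL. Here LAP preB-ALL 1 and 3 were the high tumours, and the median difference of -0.37 was -0.56 without LAP preB-ALL 2 and 4. Myc was at -0.75, -0.27 and 0.04 in LAP/Blnk preB-ALL, against 1.29, 0.06, 1.21 and -0.01 in LAP preB-ALL (-0.97, adjusted p = 0.585). Its relative Mycn was at 3.45, 5.55 and -0.37 in LAP/Blnk preB-ALL, against 0.29, -0.34, -0.21 and 0.03 in LAP preB-ALL. By this probe set Mycn was high in 2 of the 3 knockout tumours and was not called (2.93, adjusted p = 0.429). Another Mycn probe set was at 0.70, 0.71 and -0.12 in LAP/Blnk preB-ALL and differed by 0.46. A further one differed by -0.30, and neither was called. Of 30 glycolysis and hypoxia genes 23 had a negative difference, with a median of -0.47 that was -0.43 without LAP preB-ALL 2 and 4. Pfkl, a phosphofructokinase gene, was the call among them, a fall of 1.08 (adjusted p = 0.0421). Its other probe sets differed by -0.82, which was called, and by -0.34, which was not. Alas1, the gene of the first enzyme of heme synthesis outside red cells, fell by 1.43 (adjusted p = 0.0137). The transporter gene Abcc1 fell by 1.64 (adjusted p = 0.0421; 0.0678 without LAP preB-ALL 2 and 4). The other Abcc1 probe set differed by -0.63 and was not called. St6galnac4, a sialyltransferase gene, was at -0.75, -0.86 and -0.83 in LAP/Blnk preB-ALL, against 1.09, 0.88, 0.85 and 0.67 in LAP preB-ALL, and fell by 1.69 (SE 0.22; adjusted p = 0.00537) in each fit that left out a tumour as well. Csprs had the largest fall among called genes chosen in the same way as Gfra1 (4.21, SE 0.94; adjusted p = 0.0373). It belongs to a repeated gene cluster, so its probe sets may read several copies. Without LAP preB-ALL 2 and 4 Csprs was not called (-3.36, adjusted p = 0.135).

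Lists of genes related to the transgene held 0 calls, which in lists this short is near the 2.37% of all genes called. Of 5 measured C/EBP family genes and 24 inflammatory genes with C/EBP sites 0 were called, with median differences of -0.34 and -0.55. Cebpa differed by -0.67, Cebpd by -0.50 and Cebpg by 0.44. Of 26 measured genes of pre-BCR and B-cell receptor signalling, the pathway in which Blnk acts, 0 were called, again near that share. Their median difference was 0.004. Without LAP preB-ALL 2 and 4 it was 0.28, and 3 of these genes were called. Pik3ap1, an adaptor that brings phosphoinositide 3-kinase to the receptor, was at 1.26, 0.98 and 2.00 in LAP/Blnk preB-ALL, against -0.99, 1.14, -1.38 and -0.16 in LAP preB-ALL (1.76, adjusted p = 0.0691), and rose by 2.59 in the fit without LAP preB-ALL 2 and 4 (adjusted p = 0.00381). It lies on chromosome 19.

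Chromosome 19 held a large share of the rises. Of its 568 tested genes 119 rose and 1 fell (21.1%), whereas 286 of 16529 genes elsewhere were called (1.73%), 153 higher and 133 lower. A fit of the genes outside chromosome 19 alone called 123 of these 286, 69 higher and 54 lower, and no others. The remaining calls elsewhere thus depended on testing them together with the genes of chromosome 19. Its median was 0.26, 0.21 and 0.32 in LAP/Blnk preB-ALL, against -0.09, 0.05, -0.05 and -0.03 in LAP preB-ALL. All 3 LAP/Blnk preB-ALL lay above all 4 LAP preB-ALL, with a median difference of 0.32, and 70.4% of its genes had a positive difference. On chromosomes 1 to 18 together the median difference was -0.03. Without LAP preB-ALL 2 and 4 the chromosome 19 median difference was 0.38. Among the 47 steadier genes 25 lay on chromosome 19, among them Gfra1, Kif20b, Kif11, the Hedgehog inhibitor Sufu (2.09 ± 0.32) and the riboflavin kinase gene Rfk (1.98 ± 0.24), and 22 lay elsewhere. The other Sufu probe sets differed by 0.95 and -0.18, and the last was not called. Genes of the chromosome that were not higher include Ms4a1, at -3.91, a value that rests on LAP preB-ALL 2 and 4 (3.87 and 1.94). In LAP preB-ALL 1 and 3 Ms4a1 was at -3.87 and -4.67, close to LAP/Blnk preB-ALL at -4.69, -4.59 and -4.49. In the 5 Blnk preB-ALL the chromosome's median ran from -0.08 to 0.06, so a shift of this median was not seen in them. The steadier genes named above did lie between the means of LAP/Blnk preB-ALL and LAP preB-ALL. Their medians in Blnk preB-ALL were 0.53 for Gfra1, 0.89 for Kif20b, 0.63 for Kif11, 0.48 for Sufu and 0.63 for Rfk. Chromosome 12 was raised in LAP/Blnk preB-ALL 1 and 2 (0.16 and 0.11) but not 3 (-0.08), against -0.03 to -0.01 in LAP preB-ALL, and 19 of its 574 genes rose and 1 fell. The number of copies of these chromosomes was not measured, and its part in the result was not tested.

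**Figure D4:**
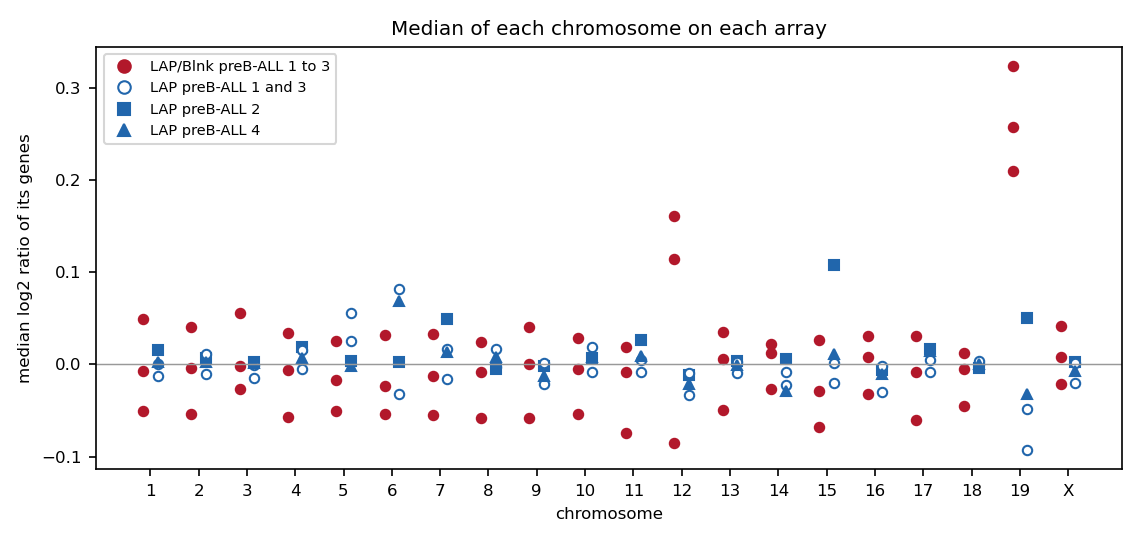
Median log2 ratio (y axis) of the tested genes of each chromosome (x axis) on each array, 1 point for each tumour, with LAP/Blnk preB-ALL filled red and left of LAP preB-ALL in blue. On chromosome 19 the 3 LAP/Blnk preB-ALL lie between 0.21 and 0.32 and the 4 LAP preB-ALL between -0.09 and 0.05.

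**Figure D5:**
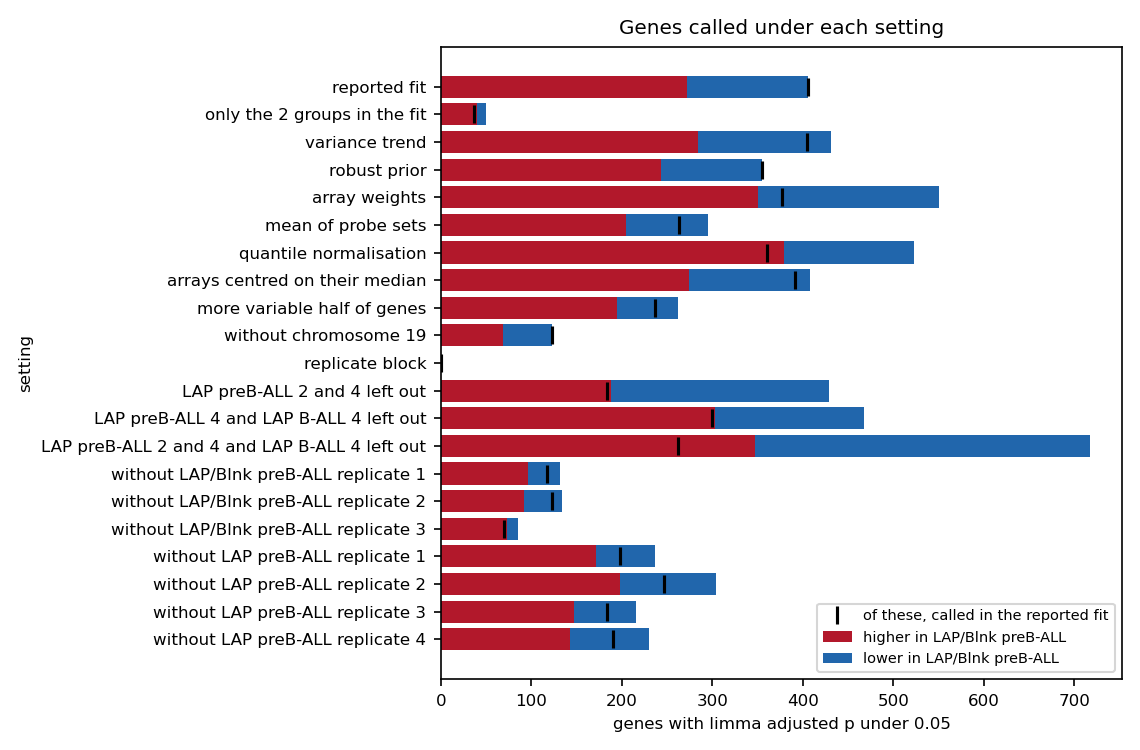
Number of genes called (x axis) higher (red) and lower (blue) in LAP/Blnk preB-ALL than in LAP preB-ALL under each setting of the fit (y axis), with a black mark at the number shared with the reported fit. The reported fit calls 406 genes, leaving out a single tumour calls 85 to 304, and leaving out LAP preB-ALL 2 and 4 calls 429, of which 183 are shared.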

How the data were processed

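Total RNA of the tumours was labelled as biotin cRNA and hybridised to a mouse Affymetrix array, per the labels. The authors deposited log ratios, taken here as log2, whose median over the 16 tumours is 0 for each probe set, per the values. MAS5 is the tool named in the submitters' processing notes, with no version. The values hold no level, so detection and depth are unknown, and precision is limited by the number of arrays. Names of probe sets came from the 2016 platform annotation and RefSeq GRCm38.p6. Of the probe sets, 28898 had 1 symbol, 551 several and 15692 none. For each of 17097 genes the probe set with the largest spread around the cell-line mean and the tumour mean together, groups ignored, was tested. A limma 3.58.1 model in R 4.3.3 was fitted to the 4 tumour groups, with moderated two-sided tests and Benjamini-Hochberg adjustment at 0.05. The fit was tested on simulated data. Exact permutation tests were run on Cebpb and Blnk probe sets. Named genes were the label genes, the 20 largest rises and falls among called genes whose groups did not overlap, called members and the 4 largest differences of each list, the 10 largest changes called without each tumour, and a stage panel. Unnamed transcripts and receptor segments were left out. The members and lists were chosen with earlier results of these data known. Alternatives were other normalizations, probe set rules, variance models and sets of tumours.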

Additional observations from a re-analysis of the deposited data

Results flagged for a closer look

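Of 105 values examined in the 4 LAP preB-ALL, 7 had 1 tumour set apart from the other 3, where chance gives about 1 in 20. Groups of 3, as in LAP/Blnk preB-ALL, were not examined. LAP preB-ALL 2 stood apart in Cebpb, at -1.41, and in Blnk, at 1.45. LAP preB-ALL 1 stood apart in Gfra1, at -1.39, and in Robo3, at 2.58, in both closer to LAP/Blnk preB-ALL than the rest of its group. LAP preB-ALL 4 stood apart in the medians of the erythroid and platelet list, at 4.88, the granulocyte list, at 2.04, and the sterol and fatty acid synthesis list, at -0.148.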

How the results depend on the processing

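Against the 406 genes called, a fit of only these 2 groups called 50, the test of every probe set 649, the genes of above-median spread 262, and genes outside chromosome 19 alone 123. A 2-fold minimum left 177. With the replicate number as a block among tumours 1 to 3 the count was 0 (limma; 2080 genes under an unadjusted p of 0.05), against 33 without the block in the same tumours. The deviations of same-numbered tumours correlated at 0.0166, -0.0434 and 0.128, so the numbers were not taken to pair the tumours. The log2 ratios of these tumours correlated at 0.0378, -0.260 and 0.120. Leaving out 1 tumour called 85 to 304. Leaving out LAP preB-ALL 2 and 4 and LAP B-ALL 4, chosen after seeing the data, called 717. The chromosome 19 median difference was 0.24 with the mean of probe sets, 0.39 after quantile normalization and 0.38 without LAP preB-ALL 2 and 4. Cebpb turned to -0.0829 with the mean of probe sets. Without LAP preB-ALL 2 and 4, with or without LAP B-ALL 4, differences that were not called turned sign to 0.81 for Blk, 0.19 for Ccr9, 0.21 for Cd3g, 0.42 for Gbp8, 0.40 for Gzmb, 0.31 for Mpo, -0.19 for Tifab and -0.20 for Il2ra. Mpo was at 0.36 with and without the block and without LAP preB-ALL 4 and LAP B-ALL 4. Over the fits without 1 tumour, Mpo ran from -1.03 to 0.36, S100a8 from -0.22 to 3.27 and Il2ra from -0.14 to 0.38. Of 195 named genes, 62 were called, 0 of these turned sign under any setting run and 10 uncalled genes did. Leaving out tumours could not turn the sign of a gene whose groups did not overlap. The cause of these changes was not tested. With no level in the values, signal over background could not be used.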

Other observations

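The fit without LAP preB-ALL 2 and 4, which was chosen after seeing the data, called 246 genes that were not among the 406, 62 higher and 184 lower in LAP/Blnk preB-ALL than in LAP preB-ALL 1 and 3. The genes named here are from the 10 largest of each direction. Flt3, a cytokine receptor of early lymphoid progenitors, was at 0.19, -0.76 and -0.16 in LAP/Blnk preB-ALL, against 3.85, 2.18, 7.09 and -0.42 in LAP preB-ALL 1 to 4. Its difference was -5.71 without LAP preB-ALL 2 and 4 (limma adjusted p = 0.00381) and -3.42 with them (adjusted p = 0.146), and it was also called without LAP preB-ALL 4 alone (adjusted p = 0.0259). The adhesion genes Cdh1 and Cdh17 were high in LAP preB-ALL 1 and 3. Cdh1 was at -0.14, -0.29 and 0.01 in LAP/Blnk preB-ALL, against 8.27, -0.22, 3.16 and 0.30 in LAP preB-ALL, and Cdh17 at 0.43, 0.26 and 0.82 in LAP/Blnk preB-ALL, against 5.45, -0.23, 4.84 and -1.14 in LAP preB-ALL.

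In the other direction, E2f2, a cell-cycle transcription factor gene, was at 0.02, -0.38 and -0.17 in LAP/Blnk preB-ALL, against -2.43, -2.20, -2.29 and 0.97 in LAP preB-ALL. Its difference was 2.18 without LAP preB-ALL 2 and 4 (limma adjusted p = 0.00818). Cd72, a B-cell surface receptor gene, was at -0.02, 0.02 and -0.18 in LAP/Blnk preB-ALL, against -2.44, -0.48, -3.54 and 1.97 in LAP preB-ALL, and its difference of 2.93 (adjusted p = 0.0189) was 1.06 with all 7 tumours (adjusted p = 0.585). In these fits LAP preB-ALL is represented by 2 tumours.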
